A study of Homo sapiens with 6 samples.

Results

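Glycolysis, gluconeogenesis and the glucose genes induced by low oxygen were followed through 45 genes, chosen by name for their place in these pathways, with earlier results of these data known. In all, 43 of them were found among the 29908 genes of the expression table, matched by Ensembl identifier to GENCODE release 29, and LDHB and PCK1 were not analysed here. Levels are in FPKM, which scales the reads of a gene by its exon length and by the depth of its library. Of the 43, 35 reached 0.5 FPKM on average across the libraries and were tested, while 8 fell under this level and are given as values only.

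The comparison asked how gene expression in Hep3B cells, an established human hepatocellular carcinoma (HCC) line, differed after knockdown of DAGLA, the diacylglycerol lipase that makes the endocannabinoid 2-AG. Hep3B-KD cells (shDAGLA, genotype DAGLA knockdown) carried a lentiviral short hairpin RNA, and Hep3B-Con cells (shControl, genotype control) carried a control lentivirus that the series record calls an empty vector. Both groups were selected with puromycin, and each was sequenced as 3 libraries, which the series record calls biological replicates. Each group is 1 line from 1 construct, so the hairpin, its integration and the selection cannot be told apart from the loss of DAGLA. The sample records name DMEM as the medium and the study's methods name MEM-alpha for Hep3B. No source used here gives the oxygen level. Whether glucose supply and oxygen at the cells were equal in both groups is therefore not known.

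Glycolysis splits glucose into pyruvate and yields ATP without oxygen, and lactate dehydrogenase then turns pyruvate into lactate. Gluconeogenesis, a task of the liver, runs the reversible steps backwards and bypasses the irreversible ones with its own enzymes. When oxygen is short, the prolyl hydroxylases of the EGLN family no longer mark the hypoxia-inducible factors (HIF) for destruction, and HIF-bound genes, many of them glycolytic, are transcribed. Liver tumours are known for a shift from glucose output to glucose use.

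The libraries held 15861039 to 17572714 reads, recovered from the FPKM values and exon lengths. DAGLA itself stood at 9.42, 9.40 and 9.02 FPKM in Hep3B-Con and at 4.62, 4.46 and 4.78 FPKM in Hep3B-KD, a log2 fold change of −0.99 (adjusted p = 5.25e-06, limma), so the labels held. The liver label held too, since the 10 hepatocyte and hepatoma markers summed to 2594 to 2643 FPKM in Hep3B-Con and 4108 to 4125 FPKM in Hep3B-KD, most of it from ALB. Of these 10 markers, 7 were higher and 2 lower, FGB (log2 fold change −0.96) and HNF4A (−0.35). Fibroblast markers summed to 9.28 to 10.2 FPKM and 5.48 to 5.96 FPKM, with COL3A1 and DCN at 2 reads or fewer in every library and with COL1A1, LUM and PDGFRB, the 3 that were tested, all called lower (log2 fold changes −1.20, −0.86 and −0.32). Endothelial markers summed to 0.385 FPKM at most, and CDH5, VWF and KDR had 2 reads or fewer in every library. The leukocyte markers analysed summed to 2.83 to 4.45 FPKM and 3.98 to 4.79 FPKM, nearly all from LYZ and CD14, while PTPRC stayed at 6 reads or fewer. Their part in the results was not tested.

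The hairpin target is shown because the knockdown rests on this sequence and because its guide strand could pair with other transcripts. The capitals mark the letters that pair with bases 2 to 8 of the guide, counted from its 5′ end.
shDAGLA target: gcgacaacaagGCCTTCAa
guide strand: tTGAAGGCcttgttgtcgc
Among GENCODE transcripts the whole 19-base target was found in DAGLA alone. The letters GCCTTCA stood in the 3′ untranslated region of 4 of the 43 genes (9.30%) and of 1628 of 11189 expressed genes (14.6%). The 4 genes were ALDOC, TPI1, PC and ANKRD37, shown with the bases around the match in GENCODE 29 transcripts.
ALDOC: cagagatGCCTTCAcctggca
TPI1: tttgtctGCCTTCActggact
PC: tccccaaGCCTTCAacagaag
ANKRD37: gaagaacGCCTTCAtttcatg
TPI1 and PC were also among the 4 genes that fell at least 2-fold, whereas ALDOC was not called. Whether the hairpin acted on them was not tested, and counts are also given without both, a choice made after the data had been seen.

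Transcripts of the chosen glucose and hypoxia genes were mostly lower in Hep3B-KD cells. Of the 35 genes tested, 20 were lower (57.1%) and 8 were higher (22.9%) at an adjusted p under 0.05, and 7 were not called. Over all 14221 genes tested, the same rule called 23.8% lower and 36.1% higher. The median log2 fold change, Hep3B-KD against Hep3B-Con on log2(FPKM + 0.1), was −0.27 for these genes and 0.11 for all genes tested. With every library centred on its median log ratio the median of all genes was 0.01, the calls over all genes were 4064 higher and 4308 lower in place of 5133 and 3388, and the calls among the glucose genes were 8 higher and 21 lower. Without TPI1 and PC, 18 of 33 genes were lower and 8 higher, with a median of −0.20. In bulk RNA, fewer cells that use a gene and less of its RNA per cell cannot be told apart. Where groups are said below not to overlap, this describes the libraries only. The share of all genes without overlap was not counted, and GCKR and ENO2 did not overlap although neither was called.

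At a fold change of at least 2, 4 genes were lower, namely PC, EPAS1, PCK2 and TPI1, and 1 was higher, PFKFB4, whose fold change fell under 2 in several alternative settings. The background at this threshold was 2.94% lower and 5.89% higher. The chosen enzymes from HK1 and HK2 to LDHA, 16 genes without ALDOA, summed to 1542, 1553 and 1549 FPKM in Hep3B-Con. In Hep3B-KD they summed to 1193, 1195 and 1190 FPKM. Enzymes outside the chosen genes, such as HKDC1 and ENO3, are not in this sum. In the share of all recovered reads this was 0.674% to 0.679% in Hep3B-Con and 0.529% to 0.530% in Hep3B-KD, so the groups lay apart and each varied little.

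**Figure D1:**
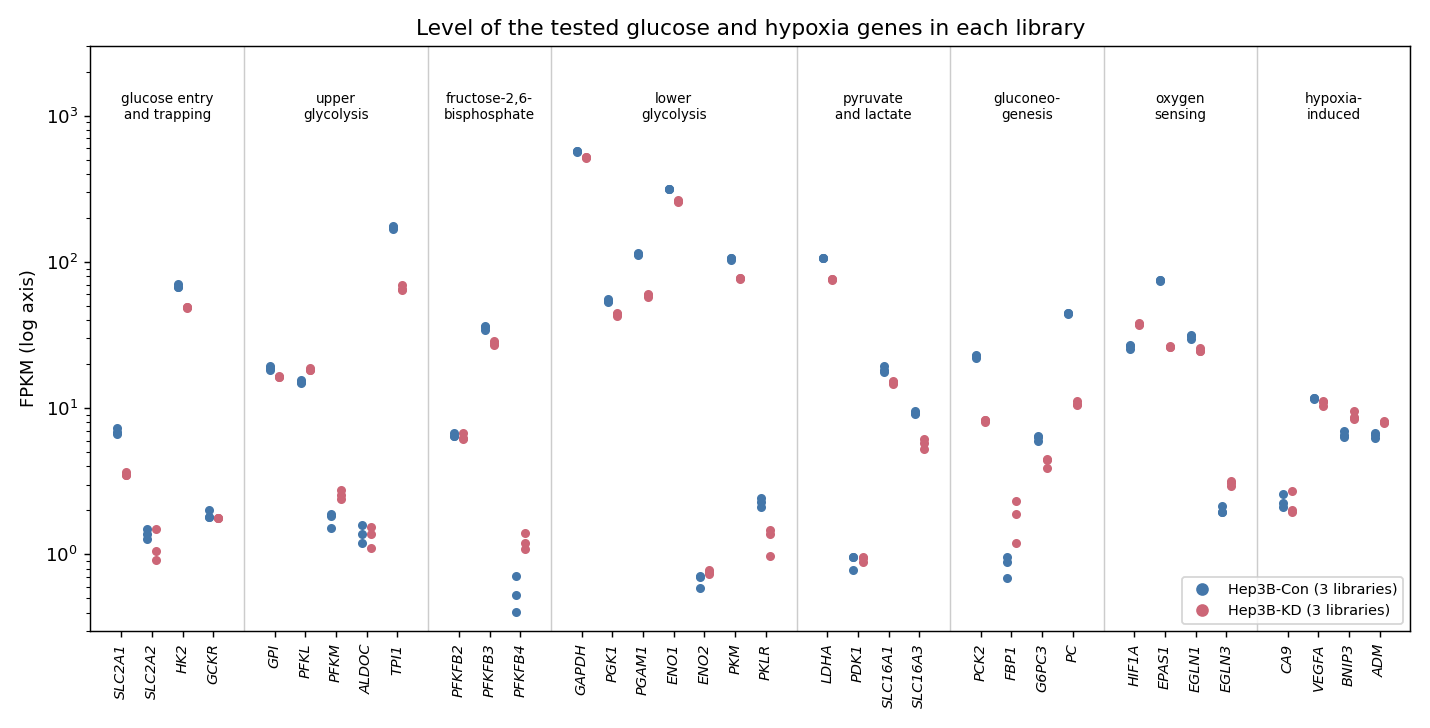
FPKM (log axis) of the 35 tested genes in each of 3 Hep3B-Con libraries (blue) and 3 Hep3B-KD libraries (red), arranged by role. GAPDH, near 571 FPKM in Hep3B-Con, is the most abundant, and the widest gaps between the groups are seen for PC, EPAS1, PCK2 and TPI1.

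**Figure D2:**
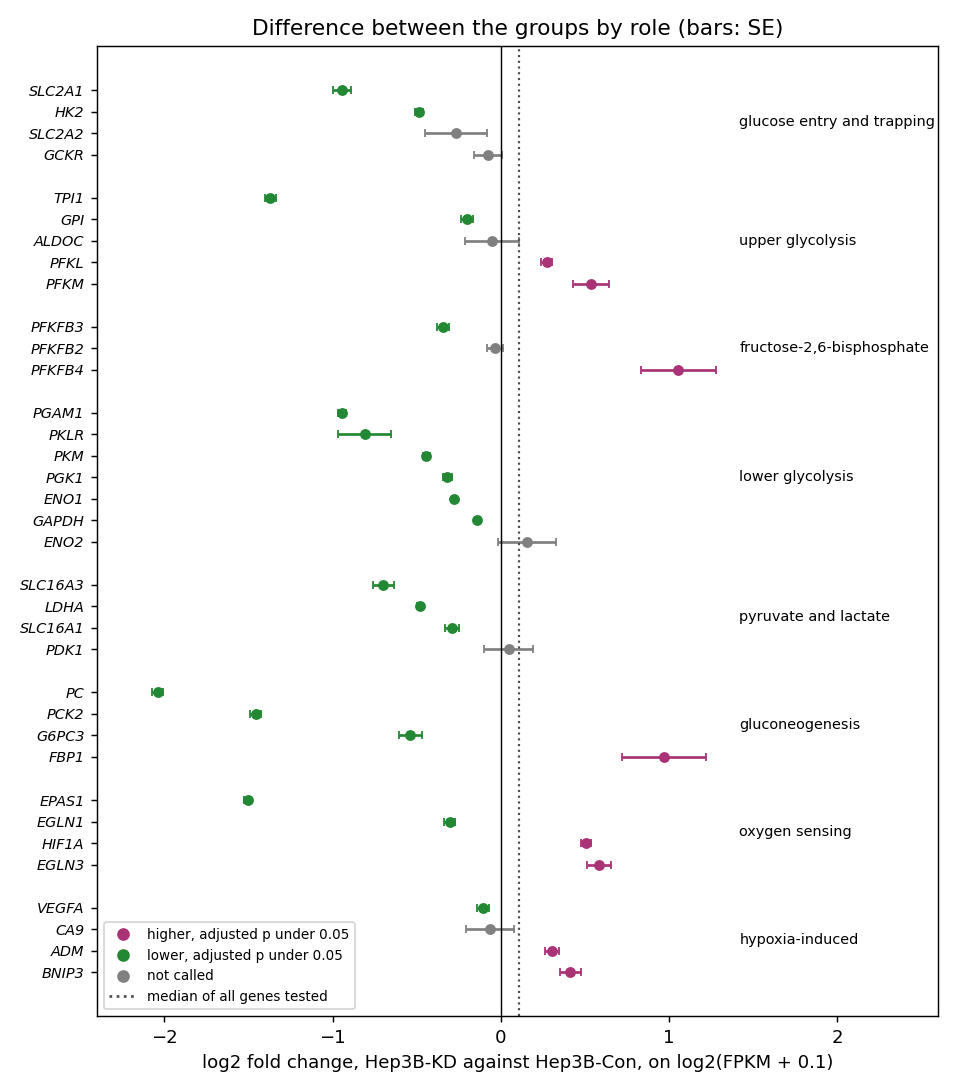
Log2 fold change of each tested gene, Hep3B-KD against Hep3B-Con, with its SE, grouped by role. The dotted line is the median of all genes tested (0.11). To its left, 6 of the 7 lower glycolysis genes and 3 of the 4 gluconeogenesis genes were called lower, against 23.8% of all genes tested. Roles this small were not tested against that share.

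Glucose enters hepatoma cells through carriers of the SLC2A family and is trapped by phosphorylation. None of the 4 chosen genes tested at this step was higher and 2 were lower (50%), against 36.1% and 23.8% of all genes tested. These are only 4 genes, and no test compared them with these shares. SLC2A1, the GLUT1 carrier of most cultured and tumour cells, was present at 6.82, 6.66 and 7.27 FPKM in Hep3B-Con and at 3.5, 3.66 and 3.47 FPKM in Hep3B-KD. All 3 knockdown libraries lay far below the controls, and the log2 fold change was −0.95 ± 0.05 (SE, adjusted p = 1.23e-05). HK2, the hexokinase typical of tumours, was at 70.3, 67.5 and 67.3 FPKM and at 48.2, 48.8 and 49.5 FPKM, again without overlap (log2 fold change −0.48 ± 0.02, adjusted p = 8.5e-06).

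The liver carrier SLC2A2 ranged from 1.28 to 1.48 FPKM and from 0.911 to 1.49 FPKM, so the groups overlapped (log2 fold change −0.27, adjusted p = 0.26). It was called lower only when Hep3B-KD replicate 1 was left out (adjusted p = 0.0403, range over the alternatives 0.0403 to 0.587). GCKR, the regulatory protein of glucokinase, averaged 1.88 ± 0.13 FPKM (SD, n = 3) and 1.77 ± 0.01 FPKM. It was not called, although its values did not overlap between the groups. SLC2A3, a high-affinity carrier, had 18, 36 and 32 reads and then 14, 11 and 11 reads, and HK1, the hexokinase of most tissues, had 0 to 3 reads in every library. HK2 therefore held at least 99.9% of the summed FPKM of HK1 and HK2 in every library. HKDC1, a hexokinase gene outside the chosen genes, averaged 17.8 ± 0.38 FPKM in Hep3B-Con and 11.7 ± 0.46 FPKM in Hep3B-KD. It was called lower (log2 fold change −0.59, adjusted p = 2.3e-05, limma) and is not part of this share.

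Upper glycolysis was mixed, with 2 genes higher (40%), 2 lower (40%) and 1 not called of 5 tested. Over all genes tested 36.1% were higher and 23.8% lower, and 5 genes are too few to set apart from these shares. TPI1, triose phosphate isomerase, was the clearest change here. It stood at 168, 172 and 176 FPKM in Hep3B-Con and at 65.4, 69.3 and 64.8 FPKM in Hep3B-KD (log2 fold change −1.37 ± 0.03, adjusted p = 4.49e-07). The 3 knockdown values were all below the lowest control value, and 2 rows named as pseudogene copies of TPI1 moved with it, from 11 to 3.77 FPKM in sum. GPI, which isomerises glucose 6-phosphate, was at 18.1, 18.8 and 19.5 FPKM and at 16.6, 16.2 and 16.3 FPKM, a small difference without overlap (log2 fold change −0.20 ± 0.03, adjusted p = 0.00233).

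Phosphofructokinase commits sugar to glycolysis, and transcripts of 2 of its 3 subunits were higher. PFKL, the liver subunit and the most abundant one, was at 15.1, 15.6 and 14.8 FPKM in Hep3B-Con and at 18.4, 18.1 and 18.7 FPKM in Hep3B-KD (log2 fold change 0.27 ± 0.03, adjusted p = 0.000324). PFKM, the muscle subunit, rose from 1.83, 1.89 and 1.52 FPKM to 2.56, 2.40 and 2.75 FPKM (log2 fold change 0.54 ± 0.11, adjusted p = 0.00431). PFKP, the platelet subunit, was too low to be tested, with 46, 37 and 35 reads in Hep3B-Con and 17, 8 and 10 reads in Hep3B-KD. Within the library, PFKM made up 10.0% ± 0.83 of the summed phosphofructokinase FPKM (SD, n = 3) and then 12.2% ± 0.56, and PFKP made up 2.71% ± 0.34 and then 0.709% ± 0.30.

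Aldolase was measured with less certainty. ALDOC, the brain form, was at 1.38, 1.59 and 1.19 FPKM and at 1.53, 1.11 and 1.38 FPKM, which overlapped and was not called (log2 fold change −0.05, adjusted p = 0.805). ALDOA, the form of most tissues, had 19, 29 and 27 reads in Hep3B-Con and 7, 15 and 19 reads in Hep3B-KD. This level is uncertain, because 1657 of its 3916 exon bases (42.3%) are shared on the same strand with AC093512.2, and how shared reads were counted is not given in the sources used here. AC093512.2 itself was listed at 0.259 FPKM on average in Hep3B-Con and 0.544 FPKM in Hep3B-KD.

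Fructose 2,6-bisphosphate, the strongest activator of phosphofructokinase, is made and removed by the bifunctional PFKFB enzymes. PFKFB3, the form with the highest kinase activity, was the most abundant, at 36.6, 34.2 and 35.8 FPKM in Hep3B-Con and 27.2, 29 and 27.7 FPKM in Hep3B-KD (log2 fold change −0.35 ± 0.04, adjusted p = 0.000215). PFKFB4 was low but higher in every knockdown library, with 0.531, 0.716 and 0.403 FPKM against 1.09, 1.2 and 1.40 FPKM (log2 fold change 1.06 ± 0.22, adjusted p = 0.00598). These levels rest on 41 to 142 reads per library. Its log2 fold change ranged from 0.53 to 1.24 over the alternatives, and it was under 1 with a pseudocount of 1, median centring, quantile normalization, or without Hep3B-Con replicate 3 or Hep3B-KD replicate 3, with an adjusted p under 0.05 in each. PFKFB2, the heart form, averaged 6.55 ± 0.19 and 6.4 ± 0.31 FPKM and was not called, while the liver form PFKFB1 had 3 reads in each Hep3B-Con library and 10, 8 and 12 reads in Hep3B-KD. In share of the 4 PFKFB genes, PFKFB3 went from 83.2% ± 1.1 to 77.9% ± 1.1 and PFKFB4 from 1.29% ± 0.39 to 3.44% ± 0.44.

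Lower glycolysis, which recovers the ATP, was the most uniform of the roles. Of its 7 chosen genes, 6 were lower (85.7%, against 23.8% of all genes tested), 1 was not called and none was higher. PGAM1, phosphoglycerate mutase, was at 116, 112 and 114 FPKM in Hep3B-Con and at 57.8, 59.2 and 60.5 FPKM in Hep3B-KD (log2 fold change −0.94 ± 0.02, adjusted p = 5.52e-07). PKLR, the pyruvate kinase of liver and red cells, was at 2.12, 2.42 and 2.29 FPKM and at 0.975, 1.47 and 1.37 FPKM (log2 fold change −0.81 ± 0.16, adjusted p = 0.00417). In both genes every knockdown library was below every control library. PKM, the pyruvate kinase of tumours and most tissues, exceeded PKLR in every library and was at 102, 106 and 106 FPKM and at 77.4, 76.2 and 77.4 FPKM (log2 fold change −0.44 ± 0.02, adjusted p = 6.4e-06).

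Smaller differences of the same sign were seen in PGK1, ENO1 and GAPDH. PGK1, phosphoglycerate kinase, was at 53.4, 55.5 and 54.1 FPKM and at 43.8, 44.4 and 42.4 FPKM (log2 fold change −0.32 ± 0.03, adjusted p = 6.81e-05). ENO1, the common enolase, was at 318, 316 and 318 FPKM and at 261, 258 and 267 FPKM (log2 fold change −0.28 ± 0.02, adjusted p = 1.55e-05), but its direction flipped to 0.0015 with quantile normalization (adjusted p = 0.955, range over the alternatives 2.82e-15 to 0.955). GAPDH, often used as a reference gene, was at 570, 576 and 567 FPKM and at 522, 522 and 512 FPKM (log2 fold change −0.14 ± 0.01, adjusted p = 0.00017), and with quantile normalization it was −0.06 and no longer called (adjusted p = 0.059, range 4.27e-13 to 0.059). The groups did not overlap for PGK1, ENO1 and GAPDH in the values as deposited. ENO2, the neuronal enolase, was at 0.671 ± 0.07 and 0.756 ± 0.02 FPKM. It was not called, although its values did not overlap, with 0.16 as deposited and −0.16 with quantile normalization. ENO3, an enolase outside the chosen genes, averaged 20.6 ± 0.23 and 17.9 ± 0.75 FPKM and was called lower (log2 fold change −0.21, adjusted p = 0.00255, limma).

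Glycolytic genes have many processed pseudogenes, which can take or lend reads. Of the 43 genes, 12 had rows named by their symbol followed by P and a number, 59 in all. The match was by name only, and the 1 row matched to PC need not be a copy of that gene. The copies of GAPDH, PGAM1 and LDHA summed to between 0.562% and 1.37% of the FPKM of the parent gene. For BNIP3, described with the hypoxia genes, the 16 copies summed to 52.7% of the parent's FPKM in Hep3B-Con and 61.1% in Hep3B-KD.

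At the fate of pyruvate, 3 of 4 genes tested were lower (75%) and none was higher, against 23.8% and 36.1% of all genes tested. With only 4 genes, a departure from these shares was not tested. LDHA, which turns pyruvate into lactate, was at 106 FPKM in each Hep3B-Con library and at 76.8, 76.2 and 75.2 FPKM in Hep3B-KD (log2 fold change −0.48 ± 0.02, adjusted p = 1.87e-06). SLC16A3, the lactate exporter MCT4, was at 9.58, 9.15 and 9.28 FPKM and at 5.81, 5.26 and 6.12 FPKM (log2 fold change −0.70 ± 0.06, adjusted p = 9.09e-05). SLC16A1, the carrier MCT1, was at 18.1, 19.5 and 17.6 FPKM and at 15.4, 14.7 and 15 FPKM (log2 fold change −0.29 ± 0.04, adjusted p = 0.00115). The 3 genes separated the groups without overlap, and SLC16A3 went from 33.7% ± 1.5 to 27.6% ± 1.3 of the FPKM of both carriers. PDK1, a kinase that shuts pyruvate dehydrogenase, was at 0.784, 0.966 and 0.953 FPKM and at 0.957, 0.887 and 0.952 FPKM, which overlapped (log2 fold change 0.05, adjusted p = 0.795), and its sign changed with the scaling. PDK3, another such kinase, had 20 to 32 reads per library.

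Of the 4 gluconeogenesis genes tested, 3 were lower (75%) and 1 was higher (25%), against 23.8% and 36.1% of all genes tested. The role holds only 4 tested genes, and its departure from these shares was not tested. PC fell more than any other of the 35 genes. PC, the mitochondrial pyruvate carboxylase that opens the route, was at 44.4, 45.1 and 45 FPKM in Hep3B-Con and at 11.3, 10.5 and 10.7 FPKM in Hep3B-KD (log2 fold change −2.04 ± 0.03, adjusted p = 1.25e-07). PCK2, the mitochondrial phosphoenolpyruvate carboxykinase, was at 23.3, 22.2 and 22.8 FPKM and at 8.29, 8.04 and 8.30 FPKM (log2 fold change −1.46 ± 0.03, adjusted p = 3.82e-07). Within each group the 3 values of either gene differed little compared with the distance between the groups. G6PC3, the glucose 6-phosphatase of all tissues, was at 6.31, 6.45 and 5.98 FPKM and at 4.52, 3.89 and 4.45 FPKM (log2 fold change −0.54 ± 0.07, adjusted p = 0.000607).

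FBP1, fructose 1,6-bisphosphatase, was the exception among the gluconeogenic genes. It was at 0.884, 0.695 and 0.967 FPKM in Hep3B-Con and at 1.2, 1.9 and 2.32 FPKM in Hep3B-KD, which gave the largest SE of the genes called (log2 fold change 0.97 ± 0.25, adjusted p = 0.0142). The lowest knockdown value was still above the highest control value, but the call was lost with quantile normalization (adjusted p = 0.0514, range over the alternatives 0.00285 to 0.0514). G6PC, the glucose 6-phosphatase of liver, had 0 to 3 reads in every library.

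**Figure D3:**
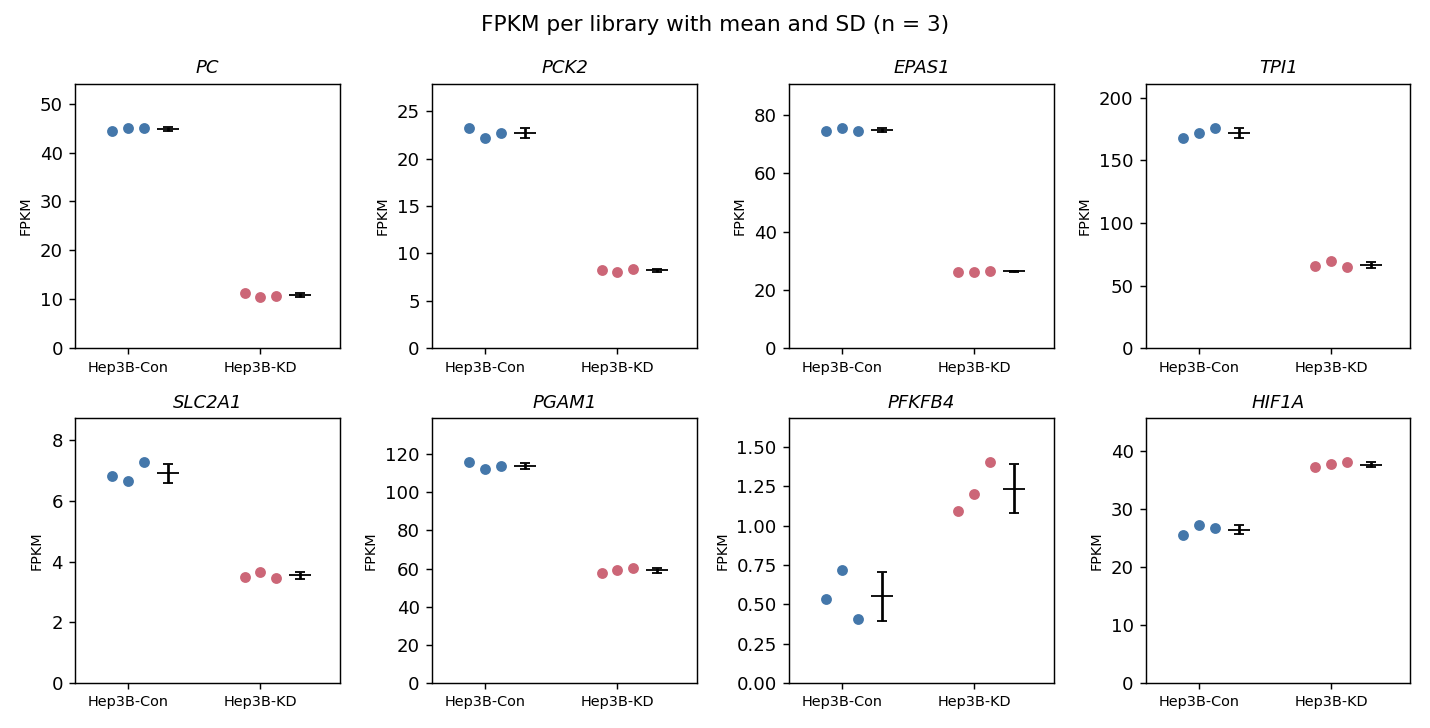
FPKM of 8 genes in each library, on linear axes from 0, with the mean and SD of each group (n = 3). PC, PCK2, EPAS1, TPI1, SLC2A1 and PGAM1 are lower in all 3 Hep3B-KD libraries, and PFKFB4 and HIF1A are higher in all 3.

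The oxygen-sensing genes split evenly, with 2 higher (50%) and 2 lower (50%). Over all genes tested 36.1% were higher and 23.8% lower, and the role has too few genes to set apart from these shares. EPAS1, which encodes HIF-2α, was at 74.7, 75.7 and 74.5 FPKM in Hep3B-Con and at 26.2, 26.3 and 26.5 FPKM in Hep3B-KD (log2 fold change −1.51 ± 0.02, adjusted p = 5.32e-08). HIF1A, which encodes HIF-1α, was at 25.5, 27.1 and 26.6 FPKM and at 37.2, 37.7 and 38.0 FPKM (log2 fold change 0.51 ± 0.03, adjusted p = 1.4e-05). The order of both genes was reversed, since EPAS1 exceeded HIF1A in every Hep3B-Con library and HIF1A exceeded EPAS1 in every Hep3B-KD library. EPAS1 made up 73.9% ± 0.52 of their summed FPKM in Hep3B-Con and 41.2% ± 0.14 in Hep3B-KD. HIF proteins are controlled mainly by degradation, which these RNA values do not measure.

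The prolyl hydroxylases also moved apart. EGLN1, the main oxygen sensor PHD2, was at 29.9, 31.2 and 31.5 FPKM and at 25.8, 24.5 and 24.6 FPKM (log2 fold change −0.30 ± 0.03, adjusted p = 0.000258). EGLN3, PHD3, which is itself induced by low oxygen, was at 2.13, 1.95 and 1.95 FPKM and at 3.10, 2.92 and 3.19 FPKM (log2 fold change 0.58 ± 0.07, adjusted p = 0.000459). Neither gene overlapped between the groups, and EGLN3 went from 6.13% ± 0.46 to 10.9% ± 0.45 of the FPKM of both.

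A share of FPKM within a library does not depend on how that library was scaled. Over 11 steps of enzymes, carriers or factors, 26 such shares were compared (in 8 steps of 2 genes the shares are complements and carry the same p), and 18 of them reached p = 0.1 in the exact two-sided permutation test, the smallest p that 3 against 3 libraries allow (adjusted p = 0.144). No share could therefore pass a threshold of 0.05. PFKL made up 87.3% ± 0.99 and 87.1% ± 0.65 of phosphofructokinase, and the sign of this difference changed with the library left out.

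Of the 4 hypoxia-induced genes tested, 2 were higher (50%), 1 was lower (25%) and 1 was not called, shares that may be set beside the 36.1% and 23.8% over all genes, and their difference from the glycolytic genes was not tested. BNIP3, a mitophagy receptor, was at 6.51, 7.03 and 6.4 FPKM in Hep3B-Con and at 8.73, 8.4 and 9.57 FPKM in Hep3B-KD (log2 fold change 0.41 ± 0.06, adjusted p = 0.00129). ADM, the vasodilator peptide adrenomedullin, was at 6.22, 6.52 and 6.76 FPKM and at 8.05, 8.18 and 7.92 FPKM (log2 fold change 0.30 ± 0.04, adjusted p = 0.000993). All knockdown values of BNIP3 and ADM were above all control values. VEGFA, the angiogenic growth factor, was at 11.7, 11.5 and 11.8 FPKM and at 11.2, 10.4 and 10.9 FPKM (log2 fold change −0.10 ± 0.04, adjusted p = 0.0481), and this call was lost in 9 of 16 alternative settings (adjusted p 1.34e-05 to 0.134). CA9, carbonic anhydrase IX, was at 2.25, 2.58 and 2.12 FPKM and at 1.96, 2.01 and 2.71 FPKM, which overlapped (log2 fold change −0.07, adjusted p = 0.717). ANKRD37 had 1 to 6 reads per library.

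Promoters were read for the short letters ACGTG, 1 form of the core to which HIF binds. Both strands were read, in RefSeq windows from 250 bases before to 50 after each start (GRCh38.p14). Overlapping ACGTG and CACGT counted as 1 match. The letters GCGTG, the other form of this core, were searched in the same way, with any overlap with ACGTG allowed. Windows were held for 39 of the 43 genes. ACGTG was present in at least 1 window of 23 of the 39 genes (59.0%) against 24.9% of all genes, and over single windows in 29 of 72 (40.3%) against 7518 of 35116 (21.4%) over all genes. GCGTG was present in 33.3% of these windows and in 36.5% of all windows, but counted by gene in 51.3% of the 39 genes and in 40.6% of all genes. Genes can have several windows, and the number of windows per gene was not matched. The background took all genes with a window, whether expressed in these cells or not. The 39 genes were chosen in part as genes induced by low oxygen, so these shares are description only. By call, ACGTG was found in 12 of the 18 genes with a window that were lower, in 2 of the 8 that were higher and in 4 of the 6 that were not called. GCGTG gave another picture. Among the higher genes it stood in a window of PFKL, PFKFB4, FBP1, HIF1A, BNIP3 and ADM, and not of PFKM or EGLN3. Among the lower genes it stood in a window of ENO1, SLC2A1, EPAS1, HK2, PFKFB3, LDHA, TPI1, PKM, SLC16A3 and PGK1, and of no other. The split by call thus depends on the form of the core that is read. A match describes the letters only, and binding was not measured.

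A window of each of 3 genes is shown, one that fell with 3 matches, the one that fell most, and one that rose, with ACGTG and its reverse complement CACGT in capitals.
LDHA, chr11:18394313-18394612, plus strand: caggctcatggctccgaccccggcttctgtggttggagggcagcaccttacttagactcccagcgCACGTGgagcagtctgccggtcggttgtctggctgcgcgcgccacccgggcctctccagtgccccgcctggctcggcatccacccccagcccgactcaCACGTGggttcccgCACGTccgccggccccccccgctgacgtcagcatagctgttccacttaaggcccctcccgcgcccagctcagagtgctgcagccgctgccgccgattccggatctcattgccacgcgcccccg
PC, chr11:66958334-66958633, minus strand: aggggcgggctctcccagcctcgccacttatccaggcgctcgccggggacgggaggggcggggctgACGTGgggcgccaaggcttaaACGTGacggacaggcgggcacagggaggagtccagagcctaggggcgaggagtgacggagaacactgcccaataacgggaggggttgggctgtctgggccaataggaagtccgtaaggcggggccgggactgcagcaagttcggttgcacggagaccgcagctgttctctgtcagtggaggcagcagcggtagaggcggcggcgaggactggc
BNIP3, chr10:131981874-131982173, minus strand: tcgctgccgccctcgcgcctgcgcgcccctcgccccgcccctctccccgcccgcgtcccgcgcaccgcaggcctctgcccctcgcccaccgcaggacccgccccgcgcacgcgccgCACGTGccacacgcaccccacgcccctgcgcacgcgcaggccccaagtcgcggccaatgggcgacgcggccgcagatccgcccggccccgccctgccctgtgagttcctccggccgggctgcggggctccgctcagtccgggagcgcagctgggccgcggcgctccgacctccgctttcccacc
The LDHA window shown holds 3 ACGTG matches, the PC window 2 and the BNIP3 window 1. GCGTG, which is not in capitals, was matched 1 time in the LDHA window, 0 times in the PC window and 4 times in the BNIP3 window. The windows were chosen for their ACGTG matches, and the other LDHA window and the other 2 PC windows hold 0 of these. Thus the letters ACGTG were present upstream of genes that were lower and of a gene that was higher.

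Genes that neighbour these pathways were counted from lists of other genes, to be read against the 36.1% higher and 23.8% lower over all genes tested. Of 25 other glycolysis and gluconeogenesis genes tested, 14 were higher (56%) and 8 lower (32%), and their log2 fold changes had a median of 0.16. They include SLC16A7, the carrier MCT2 (1.44 ± 0.13 to 3.30 ± 0.02 FPKM, SD, n = 3, log2 fold change 1.15), PPARGC1A, a coactivator of gluconeogenic genes (0.512 ± 0.10 to 1.12 ± 0.05 FPKM, log2 fold change 1.01), and TXNIP, a brake on glucose uptake (5.53 ± 0.26 to 2.71 ± 0.12 FPKM, log2 fold change −1.0). Of 18 pentose phosphate and glycogen genes, 11 were lower (61.1%) and 3 higher (16.7%), with a median of −0.22. The glycogen-targeting subunit PPP1R3B fell from 18.8 ± 0.46 to 7.61 ± 0.04 FPKM and its relative PPP1R3C rose from 3.03 ± 0.36 to 6.19 ± 0.56 FPKM.

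Other oxygen-sensing and hypoxia-induced genes moved in both directions, with 13 of 25 higher (52%), 7 lower (28%) and a median of 0.19. NDRG1, a growth and differentiation gene induced by low oxygen, was at 2.15 ± 0.30 and 10.9 ± 0.18 FPKM (log2 fold change 2.30, adjusted p = 4.57e-06). DDIT4, an inhibitor of mTOR signalling, was at 24.6 ± 1.4 and 5.89 ± 0.57 FPKM (log2 fold change −2.05, adjusted p = 2.76e-06). At a fold change of at least 2, 3 genes of this list were higher (12%) and 6 lower (24%), against 5.89% and 2.94% of all genes tested. VHL, the ligase subunit that recognises hydroxylated HIF, was named after its values were seen and was at 42.0 ± 0.76 and 23.3 ± 1.1 FPKM (log2 fold change −0.85, adjusted p = 6.26e-06).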

How the data were processed

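Messenger RNA of 6 samples, 3 Hep3B-Con and 3 Hep3B-KD, was sequenced. Samples were grouped by the titles of their records. The authors deposited FPKM values, scaled by them to gene length and library reads, in 1 table with 1 column per library and 0 other value columns. The submitters' processing notes name TopHat2 2.0.12, Bowtie2 2.0.6 and build GRCh37. The counter and its strand setting are not given in the sources used here, so reads of antisense partners cannot be told apart. With exon lengths of GENCODE 29 (GRCh38), however, 100% of values came out as whole reads within 0.01, so coordinates and lengths here are those of GENCODE 29. Read counts cover counting error only.

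Genes that averaged 0.5 FPKM or more were analysed as log2(FPKM + 0.1), which understates changes of low genes, with limma 3.58.1 (lmFit, eBayes with trend) in R 4.3.3. P-values were adjusted over all 14221 genes by Benjamini-Hochberg. They measure the spread between these libraries. The series record calls the replicates biological and the methods state 3 independent experiments in general, but neither names separate cultures for these libraries, and replicates of a group differed by more than sampling noise (chi-square per gene 1.80 to 3.30). The scripts were tested on simulated data. Shares, sequences and figures were made in Python 3.11.15 (numpy 2.4.6, pandas 2.3.3, scipy 1.17.1, matplotlib 3.10.9).

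The members and lists were chosen with earlier results of these data known. By the rule for names, values per library are given for members called with a fold change of at least 1.5 and for the most abundant member of each step. Outside it, PFKM, HIF1A, EGLN3, BNIP3, ADM, VEGFA and CA9 were also shown, chosen after their values were seen, and other lists are named by their 3 largest called changes, some of which are not reported here. LDHB, PCK1, HK3, PGAM2, GYS2, CD3E and CD68 were not analysed here. Alternatives were no filter, a 1 FPKM filter, pseudocounts of 1 and 0.01, TPM, median centring, quantile normalization, eBayes without the trend, a replicate block, voom on recovered reads and each library left out.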

Additional observations from a re-analysis of the deposited data

How the results depend on the processing

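Of the 28 genes called, 24 kept direction and call in all alternatives that gave a value. ENO1 reversed to 0.0015 with quantile normalization, and GAPDH, FBP1 and VEGFA kept their direction but lost the call in 1, 1 and 9 of 16. The count of genes lower ranged from 19 to 21 and of genes higher from 7 to 9. Genes higher at 2-fold numbered 2 with no filter or a pseudocount of 0.01 and 0 with a 1 FPKM filter, a pseudocount of 1, median centring or quantile normalization, and 0 to 2 with a library left out (2 without Hep3B-Con replicate 1 or Hep3B-KD replicate 1, 0 without Hep3B-KD replicate 3). Genes lower at 2-fold numbered 4 to 6. The median was −0.20 with no filter, −0.19 with a pseudocount of 1, −0.37 with median centring, −0.37 with voom and −0.27 to −0.19 with a library left out. Genes not called could change sign: ENO2 was −0.16 with quantile normalization, PDK1 was −0.055 with median centring, −0.24 with quantile normalization, −0.042 with voom and −0.039 to 0.097 with a library left out, ALDOC ranged from −0.15 to 0.070 and CA9 from −0.21 to 0.015 in the same way, and the change in the PFKL share ranged from −0.59 to 0.37 percentage points. SLC2A2, GCKR and PFKFB2 were called lower in 1, 1 and 2 alternatives. The causes were not tested.

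The replicate numbers did not pair the libraries (correlations of same-numbered deviations −0.066 to −0.001). With the replicate number as a block, 7919 genes were called in place of 8521, with 8 of the glucose genes higher and 19 lower, at 2-fold 1 and 4. HK1, G6PC and ANKRD37, at 6 reads or fewer, can show no difference at this depth.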
